A study of Homo sapiens with 42 samples.

Results

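Of the 60606 genes with TPM (transcript abundance as a share of all transcripts) in these cells, 44 encode proteins of the cytosolic large ribosomal subunit and are described here. They were taken as a list by gene symbol, without RPL3 and RPL3L, the paralogs that the experiment altered, and the list does not hold every large-subunit gene. All 44 were found in the table, and all 44 had a mean of at least 1 TPM over the whole-cell libraries and were tested. The list was drawn by symbol and not by a cutoff on a measured value, but with earlier results of these data known.

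AC16 is a human cell line labelled as cardiomyocyte-like. PolyA RNA of whole cells was sequenced in 30 libraries that form 10 groups of 3. In 7 groups the cells carried a hairpin against RPL3 that doxycycline induces (shRPL3) and a construct for RPL3L with the variant P291L, with G27D, with R161W, with T189M, with D308N, with D308V or with R343W. RPL3L-WT cells carried the same hairpin and wild-type RPL3L, shRPL3 cells carried the hairpin alone, and shScramble cells carried an induced scrambled hairpin. Every group received doxycycline at 1 ug/ml. Hairpin cells were kept by hygromycin selection and construct cells by sorting for BV421 signal, and RPL3L entered cells that already had the RPL3 hairpin. The labels call the P291L construct inducible and do not say this of the others, and they do not say whether any line is a clone. Whether the 3 libraries of a group are separate cultures is not stated, and each p-value sets a difference against library spread that may be technical. TPM keep no depth, so the depth of these libraries is unknown.

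The large subunit of the human ribosome joins long rRNAs with many proteins, each made from its own gene. The proteins are needed in matched amounts, and surplus copies that find no rRNA are degraded. Most of the mRNAs begin with a cytosine followed by a run of pyrimidines, the terminal oligopyrimidine (TOP) motif, through which mTOR signalling and the protein LARP1 adjust their translation and stability. RPL3 itself joins early in assembly and reaches into the centre where peptide bonds form, and RPL3L takes its place in adult heart and skeletal muscle.

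The start of the gene shows the motif in most of the list. Of the 44 genes, 37 matched by symbol to the RefSeq table of gene starts (GRCh38.p14), and RPL5, RPL7, RPL8, RPL23, RPL23A, RPL30 and RPL37 are named only. A start was counted as a pyrimidine start when its first transcribed base was C and at least 4 further bases, each C or T, followed without a break, a run of 5 or more, read on the transcribed strand alone. Of the 37 genes, 27 had such a start, which is 73.0%, against 1404 of the 27305 genes in the table, which is 5.14%. Small-subunit genes had it in 19 of 25. The windows below run from 10 bases before the annotated start to 20 bases into the transcript, with the pyrimidine run in capitals. They are shown for the 5 genes with the largest rise under the RPL3 hairpin, for RPL12 and RPL10A, which fell in at least 1 of the fits below, and for RPL11 and RPLP1, which were called in neither.
RPL24 (chr3:101686699-101686728, minus strand): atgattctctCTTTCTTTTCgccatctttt
RPL27 (chr17:42998409-42998438, plus strand): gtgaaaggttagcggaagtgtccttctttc
RPL36 (chr19:5690285-5690314, plus strand): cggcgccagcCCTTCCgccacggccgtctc
RPL35 (chr9:124861938-124861967, minus strand): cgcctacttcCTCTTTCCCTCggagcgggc
RPL26 (chr17:8383174-8383203, minus strand): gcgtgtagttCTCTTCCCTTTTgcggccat
RPL12 (chr9:127451387-127451416, minus strand): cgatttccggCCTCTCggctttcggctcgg
RPL10A (chr6:35468391-35468420, plus strand): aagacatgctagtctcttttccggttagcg
RPL11, upstream start (chr1:23691769-23691798, plus strand): cctggcccataaggccctcggccggaagct
RPL11, downstream start (chr1:23691796-23691825, plus strand): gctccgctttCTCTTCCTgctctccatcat
RPLP1 (chr15:69452808-69452837, plus strand): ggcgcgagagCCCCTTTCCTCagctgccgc
RPL24, RPL36, RPL35 and RPL26 opened with 10, 6, 11 and 12 pyrimidines in a row, RPL12 with 6, the downstream start of RPL11 with 8 and RPLP1 with 11. RPL27 and RPL10A had no such run at the annotated base, and no match says only that these letters are not at this base. A match is a description of the window and not a measured binding site.

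The libraries fall into 2 kinds that the labels do not name, and this touches every comparison with RPL3L-WT, G27D, R161W or T189M. On the first principal component of 416 pseudogenes of genes other than ribosomal protein genes, 6 libraries lay apart from the other 24 with a gap of 14.0 against a next widest gap of 2.34. The 6, here the second kind, are RPL3L-WT replicates 1 and 2, T189M replicates 1 and 2, G27D replicate 3 and R161W replicate 1. All libraries of P291L, D308N, D308V, R343W, shRPL3 and shScramble are of the first kind. Each comparison is therefore given from 2 limma fits on log2(TPM + 1) over all 10 groups, one without the kind (the pooled fit) and one with the kind as a term. A gene was called at an adjusted p under 0.05 (Benjamini-Hochberg over the 14426 genes with a mean of at least 1 TPM). Between groups that hold first-kind libraries alone the 2 fits give the same fold changes and differ in the error. What the kinds stand for was not tested.

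RPL3, the gene the hairpin targets, was at 539, 499.6 and 569.8 TPM in shRPL3 and 1565, 1534 and 1611 TPM in shScramble. RPL3L was at 2982, 2791 and 3798 TPM in RPL3L-WT, and shRPL3 replicate 3, which carries no RPL3L construct by its label, held 121 TPM of it. Of 10 cardiomyocyte markers, 8 were under 1 TPM in every library, among them TNNT2, MYH6 and MYH7, and the 10 summed to 1.69 to 6.14 TPM. The 6 fibroblast markers, led by COL1A1, were all above 1 TPM and summed to 857 to 2755 TPM. The defining cardiomyocyte genes were thus near 0 in cells labelled cardiomyocyte-like.

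Under the RPL3 hairpin, mRNAs of the large-subunit proteins rose almost across the whole list. The 44 genes together took 10.03, 9.74 and 9.66% of all TPM in shRPL3, against 7.39, 7.78 and 7.74% in shScramble. Every shRPL3 library was above every shScramble library. Because TPM are shares of a total, a higher share of these genes lowers the shares of others, and more RNA of these genes and less of other RNA cannot be told apart. Of the 44 genes, 25 rose and 1 fell in the pooled fit, where 17.2% of all tested genes rose and 18% fell. With the kind as a term 40 rose and 2 fell, where 24.4% of all tested genes rose and 24.5% fell. The median log2 fold change of the list was 0.38, against -0.01 over all tested genes. In 40 of the 44 every shRPL3 library was above every shScramble library. The share of all tested genes that separate in this way is not given here, so this count has no background beside it. Rescaling each library by the median ratio of its genes left 40 higher and 2 lower with the kind term, where 24% and 25.1% of all tested genes were. Without shRPL3 replicate 3, the library with the RPL3L value above, 40 rose and 2 fell with the kind term, and 21 rose and 1 fell in the pooled fit. Leaving out each library in turn gave 16 to 22 higher and 1 lower in the pooled fit, lowest without shScramble replicate 1, and 39 to 40 higher with the kind term. Here and below, no share of all tested genes is given for fits with a library left out.

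**Figure D1:**
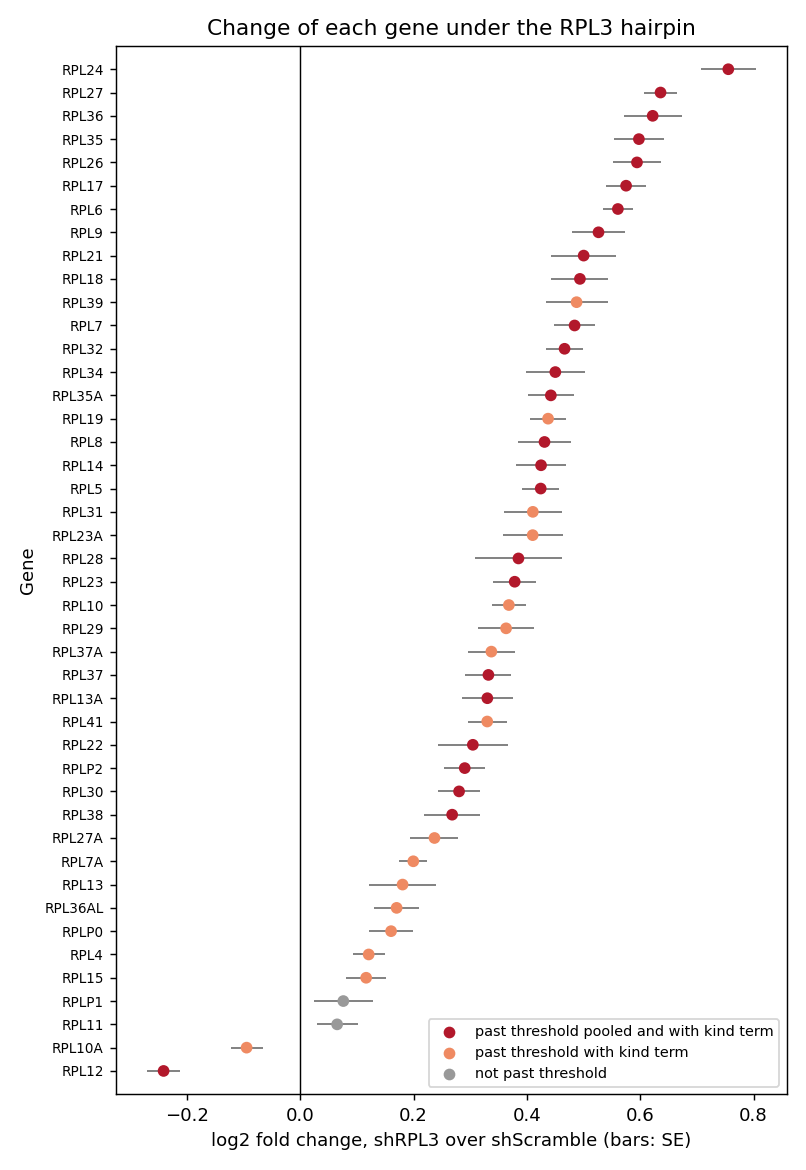
Log2 fold change of each of the 44 genes in shRPL3 over shScramble (x axis; points are fitted values, bars are SE from the fit with the library kind, 3 libraries a group), with genes down the y axis in order of size. RPL24 stands at the top at 0.76, and RPL12 and RPL10A are the 2 genes left of 0.

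RPL24, which joins the subunit late in the cytoplasm and helps bridge it to the small subunit, rose most. It was at 2549, 2505 and 2602 TPM in shRPL3, against 1469.8, 1559 and 1506 TPM in shScramble, a log2 fold change of 0.76 ± 0.0712 (SE; limma adjusted p = 1.95e-08) in the pooled fit. Its 2 groups were far apart, with the lowest shRPL3 library well above the highest shScramble library. RPL27 was at 2554, 2446 and 2382 TPM, against 1521, 1613 and 1616 TPM in shScramble, a log2 fold change of 0.64 ± 0.229 (SE; limma adjusted p = 0.0341). RPL36 was at 1048, 1011 and 1026 TPM, against 641, 643 and 723 TPM in shScramble, a change of 0.62 ± 0.0618 (SE; limma adjusted p = 4.46e-08). Neither gene's groups overlapped. RPL35 and RPL26 sit beside the opening through which the new peptide leaves. RPL35 was at 2928, 2770.1 and 2854 TPM in shRPL3, against 1851, 1858 and 1941 TPM in shScramble, a log2 fold change of 0.60 ± 0.0567 (SE; limma adjusted p = 2.17e-08). RPL26 was at 4679, 4701 and 4293 TPM, against 2893, 3108 and 3051 TPM in shScramble, a change of 0.59 ± 0.194 (SE; limma adjusted p = 0.0196). The 5 genes include 4 with a pyrimidine run of 6 to 12 bases and RPL27, which has none at its annotated start.

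Of the 10 genes of the peptide exit tunnel and its rim, 5 rose in the pooled fit and 10 with the kind term, where 17.2% and 24.4% of all tested genes and 25 and 40 of the 44 listed genes rose. All 10 had a positive fold change, and their median log2 fold change was 0.42. RPL4 and RPL17 line the tunnel, and RPL39 is a short protein deep in its wall. RPL17 was at 2868, 2820.2 and 2679.5 TPM in shRPL3, against 1786, 1935 and 1896 TPM in shScramble, a log2 fold change of 0.57 ± 0.108 (SE; limma adjusted p = 2.00e-04). RPL39 was at 4558, 4744 and 4285 TPM, against 2948, 3506 and 3251 TPM in shScramble, and its change of 0.49 had an adjusted p of 0.184 in the pooled fit and 7.88e-08 with the kind term. RPL4 had the smallest change of the 10, at 0.12, with an adjusted p of 0.463 in the pooled fit and 9.14e-04 with the kind term.

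The late-joining proteins behaved alike in direction but not in size. RPL24 was the 1 of 5 that rose in the pooled fit, and all 5 rose with the kind term. Of the 44 listed genes 25 and 40 rose in these fits, and of all tested genes 17.2% and 24.4%. RPL10, which is loaded at the last step before a subunit can translate, was at 3684, 3482 and 3555 TPM in shRPL3, against 2689, 2784 and 2832 TPM in shScramble, a log2 fold change of 0.37 (with SE 0.0302, and limma adjusted p = 4.60e-10 with the kind term and 0.39 without). RPL41, the shortest of the proteins, was at 6287, 6187 and 6346 TPM, against 4869.8, 5099.8 and 5005 TPM in shScramble, a change of 0.33 that was called with the kind term (adjusted p = 2.56e-08) and not without it (adjusted p = 0.0874).

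The P stalk, which recruits the elongation factors, was mixed. RPL12 forms its base, RPLP0 its stem, and RPLP1 and RPLP2 the pairs at its tip. RPL12 was at 2169, 2093 and 2107 TPM in shRPL3, against 2449, 2523 and 2558 TPM in shScramble, and was the 1 gene of the 44 that fell in the pooled fit, by 0.24 ± 0.0532 (SE; limma adjusted p = 0.00103) on the log2 scale. All 3 shRPL3 libraries were below all 3 shScramble libraries. RPLP2 rose, with 1838, 1816 and 1838 TPM in shRPL3, against 1454, 1489 and 1550.0 TPM in shScramble, a log2 fold change of 0.29 ± 0.1 (SE; limma adjusted p = 0.0266). RPLP0 was at 3159, 3047 and 3099 TPM, against 2733, 2796 and 2796 TPM in shScramble, a change of 0.16 that was called with the kind term alone (adjusted p = 0.00153). RPLP1 was at 1158, 1127 and 1116 TPM, against 1025, 1085 and 1118 TPM in shScramble, and was called in neither fit (log2 fold change 0.08). The 4 stalk genes thus held 1 that rose and 1 that fell in the pooled fit, where 17.2% of all tested genes rose and 18% fell. Their median log2 fold change was 0.12.

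RPL10A, the protein of the L1 stalk on the opposite flank, where spent tRNA leaves, was also lower. It was at 1319.8, 1261 and 1305 TPM in shRPL3, against 1357, 1388 and 1404 TPM in shScramble, a log2 fold change of -0.09 with an adjusted p of 0.00745 with the kind term and 0.663 without. The 2 groups did not overlap but lay close together.

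RPL5 and RPL11, which travel to the ribosome as a particle with 5S rRNA and bind MDM2 when that particle is unassembled, parted from each other. RPL5 rose, with 1310.1, 1327 and 1244 TPM in shRPL3, against 924, 995 and 974 TPM in shScramble, a log2 fold change of 0.42 ± 0.0604 (SE; limma adjusted p = 7.38e-06). RPL11 was at 2343, 2244 and 2115 TPM, against 2059, 2196 and 2148 TPM in shScramble, with overlapping groups and a change of 0.07 that was called in neither fit (adjusted p = 0.145 with the kind term). Among the 9 listed genes mutated in Diamond-Blackfan anaemia, an inherited failure of red cell production, 6 rose and 0 fell in the pooled fit, 8 rose with the kind term, and RPL11 was the one left. In the same 2 fits 25 and 40 of the 44 listed genes rose, and 17.2% and 24.4% of all tested genes.

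Levels of the list spread widely on the TPM scale, which is per transcript length. Over all 30 libraries the lowest means were 282 TPM for RPL36AL, 463 TPM for RPL9 and 635 TPM for RPL34. The highest were 4119 TPM for RPL8, 4497 TPM for RPL26 and 5657 TPM for RPL41. RPL8, which lies close to the catalytic centre, was at 4530.3, 4264 and 4410.3 TPM in shRPL3, against 3320.4, 3188 and 3285 TPM in shScramble, a log2 fold change of 0.43 ± 0.117 (SE; limma adjusted p = 0.00565). RPL9 was at 576, 595 and 540.3 TPM, against 368, 418 and 402 TPM in shScramble, a change of 0.53 ± 0.182 (SE; limma adjusted p = 0.0269). RPL36AL, a copy of RPL36A without introns, was at 290.9, 286 and 282 TPM, against 239, 265 and 259 TPM in shScramble, and its change of 0.17 was called with the kind term alone (adjusted p = 0.0011).

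The genes can also be split by their start and by the small RNAs they carry, with no test of the difference. The 27 with a pyrimidine start had a median log2 fold change of 0.36 in shRPL3 over shScramble. The 10 without such a run at the annotated base had a median of 0.45, and they may still hold the motif at another base. By the GENCODE 29 annotation (GRCh38), 17 of the 44 genes carry a small nucleolar RNA gene inside their span. Of these 17, 9 rose in the pooled fit with a list median of 0.33, and of the other 27, 16 rose with a median of 0.42. In that fit 25 of the 44 listed genes and 17.2% of all tested genes rose. The 44 genes lie on 18 chromosomes.

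Small-subunit genes and other TOP mRNAs of the translation machinery were counted in the same fits, and the difference between the gene groups was not tested. Of 32 small-subunit genes, 15 rose and 0 fell in the pooled fit and 29 rose and 0 fell with the kind term, with a median log2 fold change of 0.35. The large-to-small ratio of summed TPM was 1.30 ± 0.00784 in shRPL3 and 1.31 ± 0.00375 in shScramble (SD, n = 3 each). Of 12 elongation factor, initiation factor and other TOP genes, 2 rose and 4 fell in the pooled fit, where 17.2% of all tested genes rose and 18% fell. With the kind term 5 of the 12 rose and 4 fell, where 24.4% of all tested genes rose and 24.5% fell. The median of the 12 was 0.02. Among the paralogs that can stand in for listed proteins, RPL26L1 rose by 0.78 (adjusted p = 4.16e-09), with 147, 166 and 134 TPM in shRPL3 and 82.0, 87.6 and 89.0 TPM in shScramble. RPL7L1, which acts in ribosome assembly, rose by 0.54 (adjusted p = 1.66e-06). RPL39L fell by 0.47 (adjusted p = 0.00137), with 62.1, 58.4 and 64.5 TPM in shRPL3 and 81.9, 87.5 and 88.5 TPM in shScramble, while RPL39 had the higher value given above. RPL22L1 was at 122, 127 and 112 TPM in shRPL3 and 111, 127 and 124 TPM in shScramble, with overlapping groups.

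The 2 kinds of library also differed in this list, which bears on the construct lines. With the group in the fit, second-kind libraries were lower in 33 of the 44 genes and higher in 9, where 43.3% of all tested genes were lower and 14.5% higher. The median difference was -0.33 for the list and -0.15 for all tested genes. RPL10 was at 1308 to 1578 TPM in second-kind libraries and 2689 to 3684 TPM in first-kind libraries, a log2 difference of -1.10. RPL39 was at 1797 to 2105 TPM in the second kind, against 2948 to 4744 TPM in the first, a difference of -0.96. RPL11 lay the other way, at 3870 to 4844 TPM in the second kind against 2059 to 3072 TPM in the first, a difference of 0.71. RPLP0 and RPL26 were likewise higher in the second kind, by 0.71 and 0.67.

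**Figure D2:**
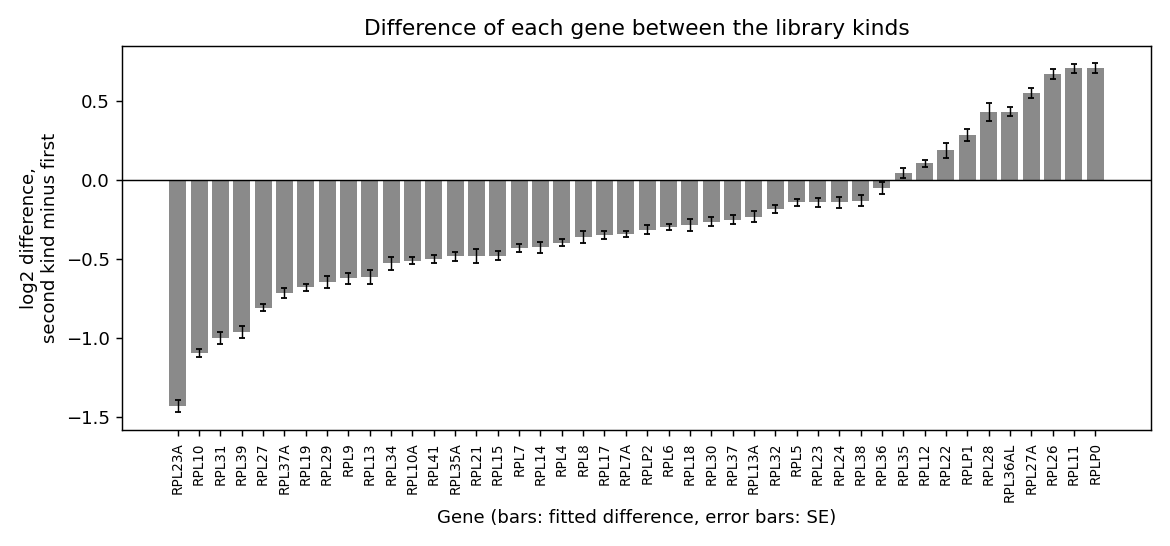
Log2 difference of each of the 44 genes between second-kind and first-kind libraries with the group in the fit (bars; error bars are SE; 6 and 24 libraries). The range runs from -1.43 for RPL23A to 0.71 for RPLP0.

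Values of RPL23A and RPL22 are given as uncertain, since named pseudogenes of both held much of the TPM. Whether reads were shared between gene and copies was not tested. RPL23AP42 was at 1110 to 1431 TPM in second-kind libraries and 925 to 1310 TPM in first-kind libraries. Named RPL23A pseudogenes held 80.4% of the summed TPM of gene and copies in the second kind and 58.4% in the first. For RPL22 the copies held 50.7% in the second kind and 24.3% in the first, nearly all of it in RPL22P1. For each of the other 42 genes the named copies held at most 1.71% of the sum.

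The first-kind RPL3L-WT library lay between shRPL3 and shScramble in the summed list. The 44 genes took 7.91, 7.73 and 8.70% of all TPM in RPL3L-WT replicates 1 to 3, of which replicate 3 alone is of the first kind. Against shScramble, 13 of the 44 rose and 3 fell in the pooled fit, where 12.1% of all tested genes rose and 34.6% fell. Here the median gene moved by -0.18, and after median-ratio scaling the split was 22 higher and 0 lower, where 22.2% of all tested genes were higher and 21.3% lower. The kind term left 33 that rose and 2 that fell, where 15.6% rose and 29.1% fell among all genes, and the list median was 0.24. RPL24 was at 1974, 1978 and 2040.0 TPM in RPL3L-WT, all above the shScramble libraries, with a log2 fold change of 0.50 ± 0.0547 (SE; limma adjusted p = 1.02e-07) with the kind term. RPL28 was 0.42 higher and RPL26 0.40 higher in RPL3L-WT with the kind term, both called. RPL11 and RPL27A, among the largest rises of the pooled fit at 0.74 and 0.54, had 0.27 and 0.17 with the kind term, and were called in both. RPLP0 was at 0.54 in the pooled fit and 0.07 with the kind term, where it was not called (adjusted p = 0.196). RPL12 fell again, by 0.26 with the kind term (adjusted p = 7.69e-07), but in the pooled fit with median-ratio scaling its value was 0.03 and not called. RPL13 was -0.51 in the pooled fit and -0.09 with the kind term, where it was not called. RPL10A was -0.43 in the pooled fit and -0.09 with the kind term, and both its value and that of RPL13 were slightly above 0 when the kind term and median-ratio scaling were combined, at 0.03 and 0.02.

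Against shRPL3, the apparent fall of the list in RPL3L-WT depended on both the kind and the scaling. In the pooled fit 31 of the 44 fell and 2 rose, where 30.2% of all tested genes fell and 5.77% rose, and the list median was -0.34 beside -0.19 over all genes. Median-ratio scaling gave 11 lower and 4 higher, where 11.4% and 12.7% of all tested genes were. The kind term left 28 that fell and 1 that rose, where 20.1% fell and 6.27% rose, with a list median of -0.14 beside -0.10 over all genes. With both, 3 rose and 1 fell, and the list median was -0.02, where 11.4% of all tested genes rose and 8.16% fell. The 5 largest falls of the pooled fit were in RPL23A, RPL31, RPL39, RPL10 and RPL27, which are the 5 genes with the largest drop between the kinds. Without RPL3L-WT replicate 1, or without replicate 2, 14 fell and 0 rose in the pooled fit. RPL10 was at 1515, 1528 and 3159.6 TPM in RPL3L-WT, with the first-kind replicate apart from the other 2, and 3684, 3482 and 3555 TPM in shRPL3. Its log2 fold change was -0.88 in the pooled fit and -0.15 with the kind term. RPL11 rose in both fits, by 0.68 and 0.20, and RPLP1 in the pooled fit by 0.34 (adjusted p = 0.0558 with the kind term).

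**Figure D3:**
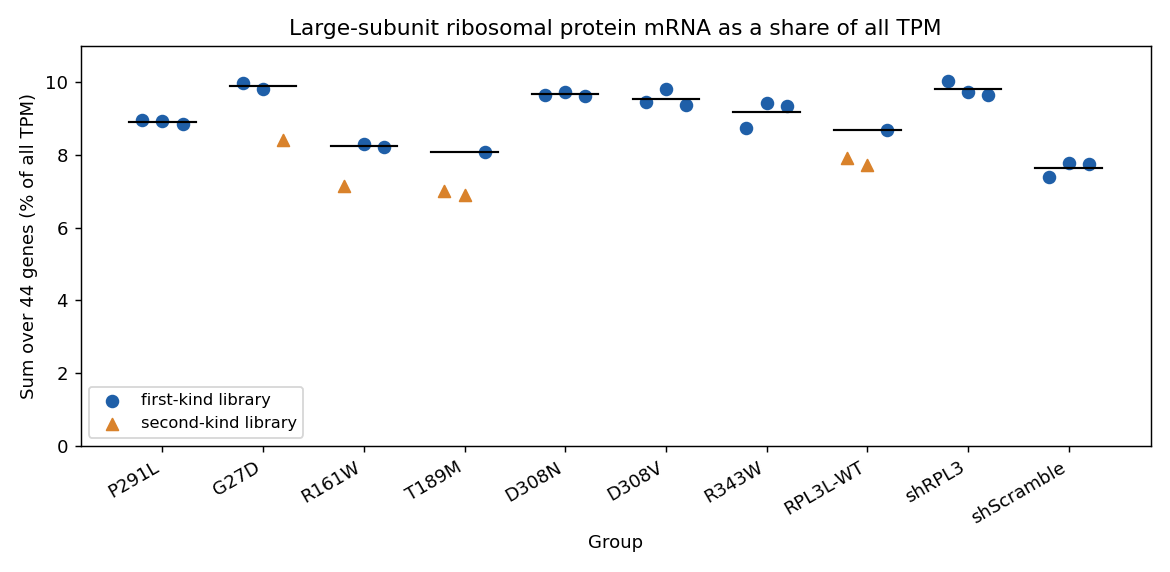
Summed TPM of the 44 genes as a percentage of all TPM (y axis) in each of the 30 libraries, by group (x axis); blue circles are first-kind and orange triangles second-kind libraries, and black lines are means over first-kind libraries. The shRPL3 libraries stand at 9.66 to 10.03% and the shScramble libraries at 7.39 to 7.78%, and second-kind libraries lie below first-kind libraries of the same group.

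Among the variant lines, G27D was higher than RPL3L-WT and R161W and T189M were lower once the kind was in the fit. The first-kind libraries of G27D held 9.98 and 9.81% of all TPM in the 44 genes, those of R161W 8.30 and 8.21%, the 1 of T189M 8.10% and the 1 of RPL3L-WT 8.70%. The second-kind libraries held 8.42% in G27D, 7.14% in R161W, 7.01 and 6.89% in T189M, and 7.91 and 7.73% in RPL3L-WT. The order of the lines was therefore the same within each kind. The calls depended on the fit. First-kind libraries alone gave 13 higher and 0 lower in G27D, where 1.32% of all tested genes were higher and 3.58% lower. They gave 5 lower and 0 higher in R161W, where 5.68% were lower and 7.86% higher. T189M and RPL3L-WT have 1 such library each, which the fit assumes to vary like the other groups, so its calls are not read here. The median log2(TPM + 1) of the 44 genes was 10.73 in the T189M library and 10.82 in the RPL3L-WT library. In limma fits on the libraries of the 2 groups alone, without the kind, 0 of the 44 were called in each of the 3 lines. In these fits 2 in G27D, 1 in R161W and 0 in T189M had an unadjusted p under 0.05. The share of all tested genes at that unadjusted p was not counted. These 3 comparisons and the other 4 below share the RPL3L-WT libraries.

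In G27D, 2 of the 44 genes rose and 0 fell in the pooled fit, where 1.55% of all tested genes rose and 1.77% fell. In the fit with the kind term 24 rose and 0 fell, where 4.31% rose and 6.02% fell, with a list median of 0.16 beside 0.00 over all genes. Median-ratio scaling with the kind term gave 18 higher and 0 lower, where 4.46% and 6.57% of all tested genes were. RPL32 and RPL36 were the 2 called in the pooled fit, where 22 rose without G27D replicate 3, 19 without RPL3L-WT replicate 3 and 0 without G27D replicate 1 or 2. RPL36 was at 1110.3, 1117 and 1035 TPM in G27D, against 896, 920.4 and 849.9 TPM in RPL3L-WT, a log2 fold change of 0.29 ± 0.0618 (SE; limma adjusted p = 0.00929), and the groups did not overlap. RPL32 had a change of 0.32 ± 0.069 (SE; limma adjusted p = 0.011). With the kind term the largest rise was that of RPL29, at 0.29, followed by RPL36 at 0.27 and RPL32 at 0.25.

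In R161W, 2 of the 44 genes fell and 0 rose in the pooled fit, where 4.07% of all tested genes fell and 12.6% rose. In the second fit, with the kind, 24 fell and 0 rose, where 8.87% fell and 16.1% rose, and the list median was -0.13 beside 0.05. Adding median-ratio scaling gave 33 lower and 0 higher, where 14.2% and 11.2% of all tested genes were. The 2 genes called in the pooled fit were RPL36 and RPL5, and without R161W replicate 1, or without RPL3L-WT replicate 3, 9 fell. RPL36 was at 730.4, 751 and 766 TPM in R161W, against 896, 920.4 and 849.9 TPM in RPL3L-WT, a log2 fold change of -0.25 ± 0.0618 (SE; limma adjusted p = 0.00844). RPL5 was at 943, 1012 and 1004 TPM, against 1098, 1094 and 1182 TPM in RPL3L-WT, a change of -0.19 ± 0.0604 (SE; limma adjusted p = 0.0342). Neither gene's groups overlapped. RPL8 had the largest fall with the kind term, by 0.29 (adjusted p = 1.12e-04).

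In T189M, 1 of the 44 genes fell and 0 rose in the pooled fit, where 0.409% of all tested genes fell and 1.39% rose. Once the kind was in the fit 28 fell and 0 rose, where 3.08% fell and 7.51% rose, and the list median was -0.17 beside 0.04. Adding median-ratio scaling gave 32 lower and 0 higher, where 6.02% and 4.55% of all tested genes were. RPL35 was the gene called in the pooled fit, with 2229, 2155 and 2202 TPM in T189M, against 2619, 2699.6 and 2507 TPM in RPL3L-WT, a log2 fold change of -0.25 ± 0.0567 (SE; limma adjusted p = 0.022). Leaving out each library in turn gave 0 to 4 lower in the pooled fit and 20 to 26 with the kind term. RPL9 had the largest fall with the kind term, at -0.26, and RPL12 the largest positive value, at 0.07 and not called. Same-numbered T189M and RPL3L-WT libraries are of the same kind.

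R161W and T189M were also the hairpin lines with the most RPL3. It was at 1059, 1686 and 1570.1 TPM in R161W, 779.7, 802 and 1246 TPM in T189M and 445, 439 and 673 TPM in RPL3L-WT. The shScramble libraries, all of the first kind, held 1565, 1534 and 1611 TPM. RPL3 mRNA in the first-kind R161W libraries, replicates 2 and 3, was thus not below its shScramble level, so R161W and RPL3L-WT differ in RPL3 as well as in the construct. First-kind libraries of the other hairpin lines held 499.6 to 737 TPM. The part of the RPL3 level in the result was not tested. Small-subunit genes gave 16 of 32 lower and 0 higher in each of R161W and T189M with the kind term, and 17 of 32 higher and 0 lower in G27D. Of all tested genes 8.87% were lower and 16.1% higher in R161W, 3.08% and 7.51% in T189M, and 6.02% and 4.31% in G27D. RPL26L1 fell in R161W, by 0.41 (adjusted p = 2.02e-04), and RPL39L rose by 0.44 (adjusted p = 0.00678), the reverse of their directions under the hairpin.

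Calls in P291L against RPL3L-WT depended on 1 library. In the pooled fit 1 gene rose and 0 fell, where 1.66% of all tested genes rose and 1.09% fell, and with the kind term 2 rose and 0 fell, where 0.825% rose and 1.16% fell. RPL32 was called in both fits, at 0.33 and 0.21, and RPL15 with the kind term, at 0.19. The pooled fold changes of the list had a median of 0.22, and those with the kind term a median of 0.00. At an unadjusted p under 0.05, 21 genes were higher and 6 lower in the pooled fit. The share of all tested genes at that p was not counted, so these numbers have no background. Without RPL3L-WT replicate 3, its first-kind library, 25 were higher and 8 lower in the pooled fit, and leaving out any other library gave 0 or 1. With the kind term the count called was 1 to 3 when each library was left out in turn.

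D308N, D308V and R343W were higher than RPL3L-WT in the pooled fit, by a list median of 0.36, 0.35 and 0.31. In D308N 22 of the 44 rose and 3 fell, where 23.7% of all tested genes rose and 9.48% fell, and median-ratio scaling gave 17 higher and 5 lower, beside 15.6% and 16.3%. In D308V 21 rose and 2 fell, where 21.6% rose and 9.03% fell, and scaling gave 14 higher and 2 lower, beside 15% and 15.2%. In R343W 16 rose and 4 fell, where 24.5% rose and 9.19% fell, and scaling gave 8 higher and 6 lower, beside 15.6% and 16.3%. All libraries of these 3 lines are of the first kind, while RPL3L-WT has 1 of the first kind. Without it the pooled counts were 30 higher and 6 lower in D308N, 31 and 7 in D308V, and 30 and 7 in R343W. Without RPL3L-WT replicate 1 they were 11 and 0, 7 and 0, and 8 and 3. With the first-kind RPL3L-WT library left out, kind and group coincide in these comparisons and cannot be told apart. These counts have no share of all tested genes beside them. Once the kind was in the fit the medians were 0.10, 0.07 and 0.04. D308N then had 22 higher and 0 lower, where 17.5% of all tested genes rose and 12.8% fell. D308V had 16 higher and 1 lower, where 16.2% rose and 12.7% fell. With scaling added to the kind term, fewer of the 44 were called in D308N and in D308V. Those numbers are in the last section, with no share of all tested genes beside them. R343W had 13 higher and 9 lower, where 18.8% rose and 12.6% fell, and with scaling 7 higher and 10 lower, beside 14.7% and 16.1%. For R343W the list thus had no common direction with the kind term.

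RPL36 was the gene with the largest rise in D308N and D308V with the kind term. It was at 1131, 1198 and 1180.3 TPM in D308N, 1162, 1189.7 and 1161 TPM in D308V and 1036, 1209 and 1203 TPM in R343W, against 896, 920.4 and 849.9 TPM in RPL3L-WT. Its log2 fold changes were 0.36, 0.36 and 0.33, all called with the kind term. RPL10, RPL13, RPL19 and RPL27 were among the 5 largest pooled rises with groups that did not overlap in both D308 lines, and all 4 were lower in second-kind libraries. RPL10 was at 0.82 and 0.85 in the pooled fit, and 0.09 and 0.12 with the kind term. RPL13 kept more of its size, with 0.70 in D308N and 0.73 in D308V in the pooled fit, and 0.29 and 0.32 with the kind term. The remaining gene of these 5 was RPL29 in D308N and RPL9 in D308V. In R343W the 5 were RPL9, RPL31, RPL29, RPL8 and RPL21. Called pooled falls without overlap were RPLP0 and RPL12 in D308N, RPL36AL and RPL12 in D308V, and RPL36AL, RPLP0, RPL12 and RPL23 in R343W. RPLP0, RPL36AL and RPL12 were higher in second-kind libraries, and RPL23 was lower.

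Set against shRPL3, the lines with first-kind libraries alone compare like with like, and fold changes are the same in both fits. P291L had 3 of the 44 genes lower and 0 higher in the pooled fit, where 15% of all tested genes fell and 4.67% rose. Adding the kind, 26 fell and 1 rose, where 27.3% fell and 8.52% rose. The list median of -0.14 stood beside -0.10 over all genes, and scaling with the kind term gave 4 higher and 6 lower, where 15.6% and 13.7% of all tested genes were. RPL6, RPL36 and RPL24 fell in the pooled fit, by 0.29, 0.29 and 0.24. RPL9 had the largest difference, with 415, 406 and 425 TPM in P291L, against 576, 595 and 540.3 TPM in shRPL3, which was a log2 fold change of -0.46 that was called with the kind term (adjusted p = 8.10e-08) and not without it (adjusted p = 0.082).

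In D308N and D308V the list stayed near its shRPL3 level. Each had 1 gene higher and 0 lower in the pooled fit, where 5.73% of all tested genes rose and 12.4% fell in D308N, and 5.19% rose and 11.1% fell in D308V. Adding the kind gave D308N 5 higher and 14 lower, where 11.2% rose and 22.2% fell, and D308V 5 higher and 13 lower, where 9.67% rose and 22.4% fell. With median-ratio scaling added the splits turned to 7 higher and 2 lower in D308N, beside 16% and 15.8% of all tested genes, and 9 higher and 0 lower in D308V, beside 15% and 13.2%. RPL36 was the gene called in the pooled fit in both, at 0.19 ± 0.0618 (SE; limma adjusted p = 0.039) in D308N and 0.19 ± 0.0618 (SE; limma adjusted p = 0.0399) in D308V. Leaving out any 1 library of D308V or shRPL3 left 0 calls in D308V. In D308N the count was 0 without any 1 library, other than D308N replicate 1, and both counts were 0 without the filter on low values. RPL8 was at 4736, 5324 and 5124 TPM in D308N and 5122, 4944 and 4844 TPM in D308V, against 4530.3, 4264 and 4410.3 TPM in shRPL3, and rose by 0.20 and 0.18 with the kind term.

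With the kind term, genes in R343W lay on both sides of their shRPL3 level, with the rises near the share of all tested genes. No pooled count was above that share. In the pooled fit 5 genes fell and 0 rose against shRPL3, where 12.4% of all tested genes fell and 7.22% rose, and scaling gave 2 higher and 1 lower, beside 10.6% and 9.95%. Adding the kind, 25 fell and 7 rose, where 22.8% fell and 12.7% rose, and with scaling 16 fell and 7 rose, beside 16.5% and 17.3%. RPL23, which faces the small subunit, was at 1289, 1367 and 1290.3 TPM in R343W, against 1726, 1701 and 1613 TPM in shRPL3, which was a log2 fold change of -0.35 ± 0.0637 (SE; limma adjusted p = 2.91e-04). The R343W libraries overlapped those of shScramble, which held 1232, 1336 and 1308 TPM. RPL36AL was at 216, 218 and 219 TPM, against 290.9, 286 and 282 TPM in shRPL3, a change of -0.39 ± 0.13 (SE; limma adjusted p = 0.0349), below every other one of the 30 libraries. RPL12, RPL38 and RPL32 fell by 0.24, 0.23 and 0.20 in the pooled fit. RPL12 was at 1704, 1862 and 1840.0 TPM in R343W, the lowest of the 10 groups. RPL9 went the other way, with 630.2, 654 and 611 TPM in R343W, against 576, 595 and 540.3 TPM in shRPL3, a change of 0.15 called with the kind term (adjusted p = 0.0161).

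**Figure D4:**
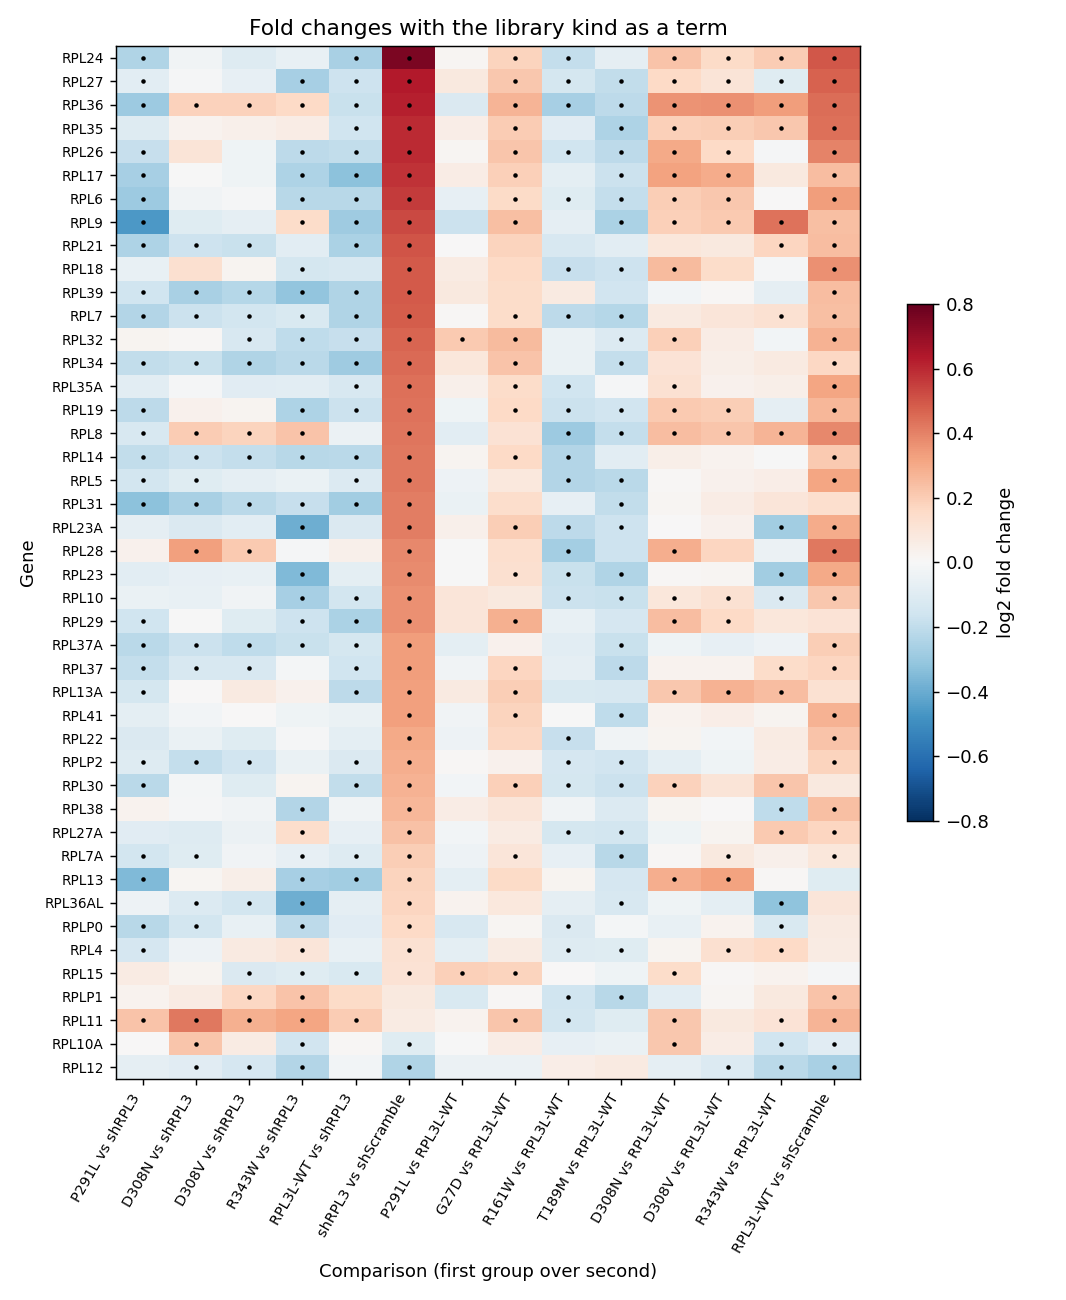
Log2 fold changes of the 44 genes (rows, in the order of shRPL3 over shScramble) in 14 comparisons (columns) from the fit with the library kind; red is higher and blue lower in the group named first, and dots mark an adjusted p under 0.05. The column of shRPL3 vs shScramble holds 40 higher and 2 lower calls, and the columns of R161W and T189M vs RPL3L-WT hold no higher call.

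RPL11 was higher than in shRPL3 in the 4 construct lines that hold first-kind libraries alone. It was at 2652, 2634 and 2574 TPM in P291L, 3072, 2916 and 2968 TPM in D308N, 2625, 2796 and 2739 TPM in D308V and 2758, 2876 and 2689.8 TPM in R343W, against 2343, 2244 and 2115 TPM in shRPL3. All libraries of these 4 lines lay above all of shRPL3. Its log2 fold changes over shRPL3 were 0.23, 0.42, 0.28 and 0.31, called in all 4 with the kind term and in none without it, where its pooled SE was 0.203. RPL5, its partner in the 5S particle, had -0.15, -0.10, -0.07 and -0.05. In the first-kind libraries of R161W RPL11 was at 2371 and 2236 TPM, which overlapped shRPL3. First-kind libraries of the other mixed lines lay above all of shRPL3, at 3041 and 2993 TPM in G27D, 2557 TPM in RPL3L-WT and 2437 TPM in T189M. The comparisons of P291L, D308N, D308V and R343W with shRPL3 share the shRPL3 libraries.

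**Figure D5:**
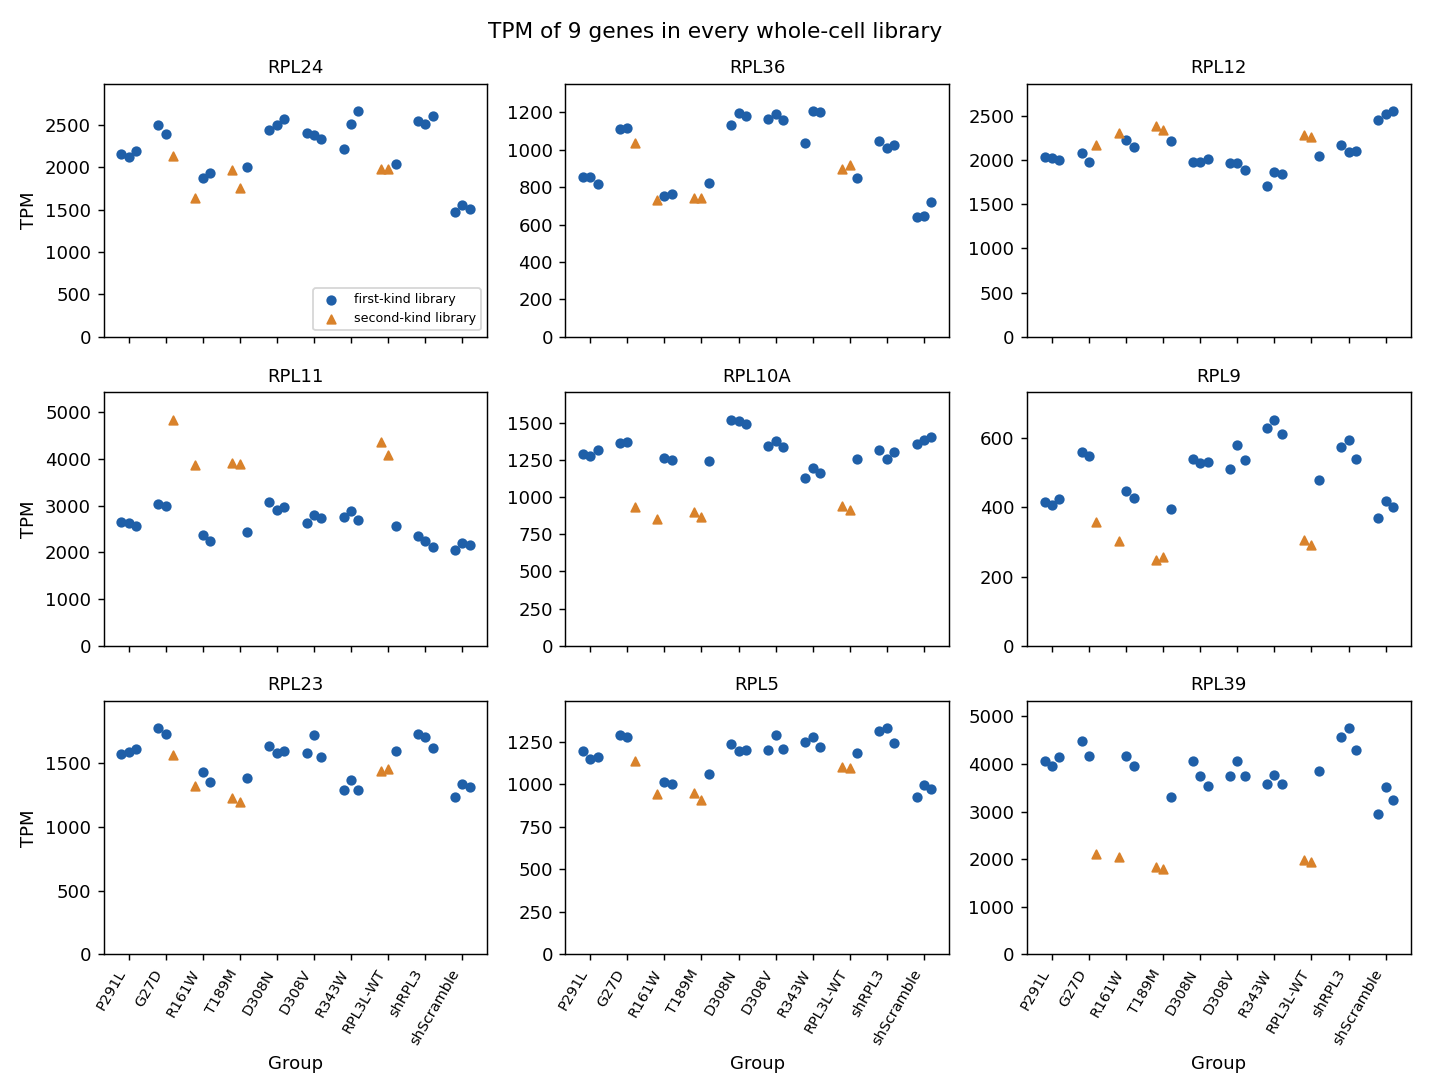
TPM (y axis from 0) of RPL24, RPL36, RPL12, RPL11, RPL10A, RPL9, RPL23, RPL5 and RPL39 in each of the 30 libraries by group (x axis); blue circles are first-kind and orange triangles second-kind libraries. RPL24 is lowest in shScramble, RPL12 is highest there, and RPL11 and RPL39 separate the kinds in opposite directions.

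D308N and D308V, which replace the same aspartate, gave 0 calls among the 44 genes in limma's pooled fit, where 0.776% of all tested genes were higher in D308N and 0.866% lower. At an unadjusted p under 0.05, 0 genes were higher and 0 lower. With the kind term RPL10A, RPL11, RPL15, RPL26 and RPL32 were higher in D308N and RPL4 was lower, where 4.07% of all tested genes were higher and 4.19% lower, and with scaling added 1 was higher and 1 lower, beside 3.56% and 5.5%. RPL10A was at 1524, 1515 and 1495 TPM in D308N, the highest of the 30 libraries for this gene, against 1346, 1376 and 1341 TPM in D308V, a log2 fold change of 0.16 ± 0.0283 (SE; limma adjusted p = 8.84e-04) with the kind term. A p that misses the threshold does not show that the 2 lines act alike.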

How the data were processed

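The values used are TPM, deposited by the authors for each gene, and in them every library summed to 1e+06 TPM. Per the submitters' processing notes bcl2fastq 2.19, kallisto, Bowtie and bedtools were used. Which of them made the TPM, and with which index and annotation, is not given in the sources used here. Per the labels' protocols, TruSeq libraries were built from polyA-selected RNA. The 12 nuclear libraries and their rRNA counts were not used here, and 6 construct entries were left out. No value column lacked a labelled library.

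After adding a pseudocount of 1 and taking log2, the 14426 genes with a mean of at least 1 TPM were fitted with limma 3.58.1 (R 4.3.3; empirical Bayes with a trend and robust hyperparameters) over 10 groups, two-sided, with Benjamini-Hochberg adjustment within each of 15 comparisons. The library kind was added as a term in a second fit. Median-ratio scaling used 11936 genes. Python 3.11.15 (numpy 2.4.6, pandas 2.3.3, matplotlib 3.10.9) was used for the rest, and the fits were tested on simulated data.

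Correlations of the deviations of same-numbered libraries ran from -0.54 to 0.51. T189M against RPL3L-WT was the 1 comparison with all 3 pairs over 0.1, at 0.19, 0.19 and 0.51, where the kinds also match. R161W and RPL3L-WT had 0.31, -0.18 and 0.38, and replicates 1 and 3 there match in kind. G27D and RPL3L-WT had -0.25, -0.21 and -0.54.

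The members and lists were chosen with earlier results of these data known. Named were, per comparison, up to 5 called genes each way with groups that did not overlap, by size of change, plus genes with a described role, paralogs, RPL3, RPL3L, and the highest, lowest and opposing genes. Genes singled out in a comparison by their value with the kind term (RPL8, RPL9, RPL15, RPL29, RPL36) were chosen there after their values were seen.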

Additional observations from a re-analysis of the deposited data

How the results depend on the processing

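Counts are of the 44 genes called in either direction. In the pooled fit they were 26 in shRPL3 against shScramble, 16 in RPL3L-WT against shScramble, 33 in RPL3L-WT against shRPL3, 1 in P291L against RPL3L-WT, 2 in G27D against RPL3L-WT, 2 in R161W against RPL3L-WT, 1 in T189M against RPL3L-WT, 25 in D308N against RPL3L-WT, 23 in D308V against RPL3L-WT, 20 in R343W against RPL3L-WT, 3 in P291L against shRPL3, 1 in D308N against shRPL3, 1 in D308V against shRPL3, 5 in R343W against shRPL3 and 0 in D308N against D308V. A pseudocount of 0.1, a replicate block and summing each gene with its pseudogenes left all 15 counts within 1.5 times. With the replicate number as a block, 25 were called in shRPL3 against shScramble, 16 in RPL3L-WT against shScramble, 32 in RPL3L-WT against shRPL3 and 1 in T189M against RPL3L-WT, and the block moved no count past 1.5 times. Settings with the kind term and either scaling or pseudogene sums were chosen after seeing the data. With the kind term the numbers called were 42 in shRPL3 against shScramble, 35 in RPL3L-WT against shScramble, 2 in P291L against RPL3L-WT, 24 in G27D against RPL3L-WT, 24 in R161W against RPL3L-WT, 28 in T189M against RPL3L-WT, 27 in P291L against shRPL3, 32 in R343W against shRPL3 and 6 in D308N against D308V. The majority direction turned, with 19 in D308N against shRPL3 and 18 in D308V against shRPL3. With each gene summed with its pseudogenes and the kind term the numbers called were 42 in shRPL3 against shScramble, 35 in RPL3L-WT against shScramble, 2 in P291L against RPL3L-WT, 24 in G27D against RPL3L-WT, 24 in R161W against RPL3L-WT, 28 in T189M against RPL3L-WT, 28 in P291L against shRPL3, 32 in R343W against shRPL3 and 6 in D308N against D308V. The majority direction turned, with 19 in D308N against shRPL3 and 18 in D308V against shRPL3. With first-kind libraries alone the numbers called were 42 in shRPL3 against shScramble, 28 in RPL3L-WT against shScramble, 13 in G27D against RPL3L-WT, 5 in R161W against RPL3L-WT, 0 in T189M against RPL3L-WT, 27 in P291L against shRPL3, 31 in R343W against shRPL3 and 7 in D308N against D308V. The majority direction turned, with 17 in D308N against shRPL3 and 18 in D308V against shRPL3. With median-ratio scaling in the pooled fit the numbers called were 15 in RPL3L-WT against shRPL3, 2 in P291L against RPL3L-WT, 7 in R161W against RPL3L-WT, 6 in T189M against RPL3L-WT, 0 in P291L against shRPL3, 2 in D308N against shRPL3 and 2 in D308V against shRPL3. The majority direction turned, with 3 in R343W against shRPL3. With median-ratio scaling and the kind term the numbers called were 42 in shRPL3 against shScramble, 41 in RPL3L-WT against shScramble, 2 in P291L against RPL3L-WT, 18 in G27D against RPL3L-WT, 33 in R161W against RPL3L-WT, 32 in T189M against RPL3L-WT, 15 in D308N against RPL3L-WT, 9 in D308V against RPL3L-WT, 10 in P291L against shRPL3, 9 in D308N against shRPL3, 9 in D308V against shRPL3, 23 in R343W against shRPL3 and 2 in D308N against D308V. The majority direction turned, with 4 in RPL3L-WT against shRPL3 and 17 in R343W against RPL3L-WT. Without the filter on low values the numbers called were 1 in R161W against RPL3L-WT, 16 in D308N against RPL3L-WT, 14 in D308V against RPL3L-WT, 13 in R343W against RPL3L-WT, 0 in D308N against shRPL3, 0 in D308V against shRPL3 and 3 in R343W against shRPL3. In fits on the 2 groups alone the numbers called were 41 in shRPL3 against shScramble, 10 in RPL3L-WT against shScramble, 6 in RPL3L-WT against shRPL3, 0 in P291L against RPL3L-WT, 0 in G27D against RPL3L-WT, 0 in R161W against RPL3L-WT, 0 in T189M against RPL3L-WT, 10 in D308N against RPL3L-WT, 8 in D308V against RPL3L-WT, 5 in R343W against RPL3L-WT, 27 in P291L against shRPL3, 25 in R343W against shRPL3 and 1 in D308N against D308V. The majority direction turned, with 16 in D308N against shRPL3 and 19 in D308V against shRPL3. The cause of these changes was not tested.

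Leaving out 1 library at a time in the pooled fit gave 17 to 23 in shRPL3 against shScramble, 11 to 24 in RPL3L-WT against shScramble, 14 to 40 in RPL3L-WT against shRPL3, 0 to 33 in P291L against RPL3L-WT, 0 to 22 in G27D against RPL3L-WT, 1 to 10 in R161W against RPL3L-WT, 0 to 4 in T189M against RPL3L-WT, 11 to 36 in D308N against RPL3L-WT, 7 to 38 in D308V against RPL3L-WT, 11 to 37 in R343W against RPL3L-WT, 1 to 2 in P291L against shRPL3, 0 to 1 in D308N against shRPL3, 0 to 0 in D308V against shRPL3, 2 to 4 in R343W against shRPL3 and 0 to 0 in D308N against D308V. RPL3L-WT replicate 3, its first-kind library, set most of the upper ends: without it 33 were called in P291L, 36 in D308N and 19 in G27D against RPL3L-WT, and 40 in RPL3L-WT against shRPL3. G27D replicate 3 gave 22 when left out, and R161W replicate 1 gave 10. With the kind term the range was 41 to 42 in shRPL3 against shScramble. Without RPL3L-WT replicate 3 and with the kind term, R343W against RPL3L-WT gave 16 with more lower than higher. Of single genes, RPL12 in RPL3L-WT against shScramble was 0.0295 under median-ratio scaling. With scaling and the kind term RPL13 was 0.0217 and RPL10A 0.0282 in that comparison, and RPL23A was 0.0064 in RPL3L-WT against shRPL3. Of 960 values of named genes under alternatives, 664 kept direction and call, 292 lost the call and 4 turned sign. TPM without depth allow no interval for low values, but the lowest mean in the list is 282 TPM.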
